A study of Arabidopsis thaliana with 8 samples.

Results

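The chromosome 5 pericentromere held 7927 of the 70564 nuclear cytosines listed as differentially methylated in this study of Arabidopsis thaliana, and 6859 distinct cytosines after repeats between lists were removed. Members were all listed positions on chromosome 5 between 9000001 and 16000001 (TAIR10, counted from 1) at which the reference sequence has a cytosine on the strand given. Whole-genome bisulfite sequencing, which reads unmethylated cytosines as thymines, had been applied to pools of the above-ground tissue of 4 plants, 25 days old, of the recombinant inbred lines CVL39 and CVL125, which descend from a cross of the accessions Ler and Cvi. Both lines had been through 5 generations of selection in replicated landscapes, numbered 1, 5 and 6, followed by 2 unselected generations, and the pool from each landscape was compared with the ancestral, unselected pool of its own line. Each list therefore names differentially methylated cytosines (DMCs), selected against ancestral, with a p-value of at most 0.05 but with no methylation level, no direction of change and no read depth. Because all 3 lists of a line rest on the same ancestral pool, they are not fully independent, and a difference between lines cannot be told apart from one between the ancestral pools.

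Pericentromeres of Arabidopsis are heterochromatic regions next to the centromere in which genes are sparse and transposons and their remnants are dense. Cytosines there are methylated in all 3 sequence contexts: MET1 maintains methylation at CG, CMT3 at CHG, and CMT2 together with RNA-directed DNA methylation by DRM2 at CHH (H is A, C or T). On chromosome arms many expressed genes carry methylation in the CG context alone, inside the transcribed body.

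The annotation of the interval fitted its name. Protein-coding genes covered 24.5% of the bases of the interval and 66.6% of those of the chromosome 5 arms, and pseudogenes, the class under which the reference annotation lists most transposon genes, covered 25.3% and 1.68%. Of the cytosines of the interval, 75.4% lay at the centre of a 31-base word that occurs once in the nuclear genome, against 97.0% on the arms.

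The sequences that carried the densest recurring DMCs are given first. They were picked for density and recurrence, whereas 86.4% of the distinct cytosines of the interval were in 1 list. They therefore do not stand for the lists as a whole. In the stretches of 30 bases capitals mark the cytosines listed in at least 2 populations of the line named, so some lower-case ones were in 1 list. In the 2 longer stretches, the CT run and AT5G26345, they mark every cytosine of any list. A capital G marks a cytosine on the opposite strand. A cluster was a stretch of 30 bases with at least 4 cytosines recurring in populations of the same line, counted once for all 3 populations and once for at least 2. CVL39 had no such cluster, and CVL125 had 1 in all 3 populations and 7 in at least 2, of which 3 lay in runs of CT dinucleotides.
Pseudogene AT5G29022, chr5:11047820-11047849, minus strand, 4 CG sites in all 3 CVL125 populations: ggcCgaatCgtaCgccagcatcaaggaCgc
PIF1 helicase gene AT5G28780, chr5:10813802-10813831, plus strand, 1 CHG and 3 CHH sites in CVL125: cgtttCctacaCttagtagCcaagCtgcaa
Repeated sequence outside genes, chr5:11887186-11887215, minus strand, 4 CHH sites in CVL125: tCatattcgactCcaaaacaCtaaccaacC
Transcribed pseudogene AT5G35932, chr5:14077161-14077190, plus strand, 1 CG, 1 CHG and 2 CHH sites in CVL125: tcttttCgGttgcgtGgcttccCtcttgcc
CT run, chr5:10058487-10058569, plus strand, 32 CHH sites over all 6 lists: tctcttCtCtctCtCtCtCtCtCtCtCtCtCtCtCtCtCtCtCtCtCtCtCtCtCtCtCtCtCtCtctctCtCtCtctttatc

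In CVL39 the closest recurrences were 2 stretches with 3 CG sites listed in 2 populations, both outside genes and both chosen after the values were seen. From the first to the last of the 3 sites of each stretch, no base was listed in CVL125. The 100 bases with the most listed cytosines outside CT runs lay in pseudogene AT5G26345 and are shown because that pseudogene headed the ranking in both lines.
CVL39 stretch, chr5:10774878-10774907, minus strand, landscapes 1 and 5: aaaCggCgtagagaaaaggtggatcgaCgc
CVL39 stretch, chr5:12437672-12437701, plus strand, landscapes 5 and 6: gtgtcagaCggtCgagcccgCgcccaaacg
AT5G26345, chr5:9250302-9250401, plus strand, 14 sites over all 6 lists, 6 CHG and 8 CHH: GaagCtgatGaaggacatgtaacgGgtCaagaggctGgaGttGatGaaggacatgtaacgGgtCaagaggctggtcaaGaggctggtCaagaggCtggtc

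The first question was how many DMCs each population had in the interval. The CVL39 populations of landscapes 1, 5 and 6 had 1307, 1396 and 1458, and the CVL125 populations had 1380, 1411 and 975. The mean was 1387 ± 75.9 for CVL39 and 1255 ± 243 for CVL125 (SD over 3 populations). The ranges overlapped, the landscape 6 population of CVL125 was the lowest, and the lines did not separate (two-sided exact permutation test over populations, p = 0.6). That same population also had the shortest list in the nuclear genome, with 7297 DMCs against 11266 to 14074 in the other 5 lists.

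As a share of the nuclear DMCs of a list, the interval took 11.6%, 11.1% and 11.4% in CVL39 and 11.0%, 10.03% and 13.4% in CVL125. For the list with the highest share, landscape 6 of CVL125, the exact Clopper-Pearson 95% interval was 12.6% to 14.2%, which covers counting error only. The mean difference of -0.09 percentage points was smaller than the spread of either line (exact permutation p = 1). Between 47.1% and 62.8% of all chromosome 5 DMCs of a list fell in the interval, the highest share again in landscape 6 of CVL125.

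CHH was the commonest context of interval DMCs in every list. CHH sites made up 47.3%, 46.6% and 46.2% in CVL39 and 49.9%, 49.5% and 50.8% in CVL125, so that every CVL125 population lay above every CVL39 population. The difference of -3.34 percentage points had an exact permutation p of 0.1, the smallest that 3 against 3 populations can give, and an adjusted p of 0.7 (Benjamini-Hochberg over 7 comparisons between lines), so it did not pass the test. Without cytosines in CT runs the CHH shares were 46.9%, 46.2% and 45.9% in CVL39 and 47.8%, 47.2% and 49.9% in CVL125, and the difference shrank to -1.96 points.

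CHG sites took 29.7% ± 1.83 of interval DMCs for CVL39 and 27.9% ± 1.84 for CVL125 (SD over 3 populations). CG sites took 23.6% ± 2.20 in CVL39 and 22.0% ± 2.46 in CVL125. Both shares overlapped between lines (exact permutation p = 0.4 for CHG and 0.5 for CG). The arms had another make-up, with CG at 63.1% to 74.5% of the DMCs of a list.

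Interval and arms were then compared within each list as DMCs per 10000 reference cytosines of the same context. The denominators count all reference cytosines, since the lists do not say which were covered or methylated. The parts of coverage and of the share of methylated cytosines in these differences were not tested. The same holds for the densities by annotation below. CHG DMCs were far denser in the interval. They reached 12.4, 11.8 and 13.1 per 10000 CHG sites in CVL39 and 11.8, 11.0 and 8.67 in CVL125, whereas on the arms all 6 lists lay between 0.516 and 1.14. The interval exceeded the arms 11.48- to 16.8-fold in all 6 lists, with a geometric mean of 13.5-fold (two-sided exact sign-flip permutation test over lists, p = 0.031, the smallest that 6 lists allow; adjusted p = 0.0352 over 9 such ratios).

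CHH DMCs were denser in the interval as well. They stood at 3.35, 3.53 and 3.66 per 10000 CHH sites in CVL39 and 3.74, 3.79 and 2.69 in CVL125, against 0.286 to 0.800 on the arms. The ratio of interval to arms ran from 4.73 to 9.40 over the 6 lists, mean 6.83-fold (exact sign-flip permutation p = 0.031, adjusted p = 0.0352). Among DMCs with a listed p of 0.005 or less it was 4.54-fold. There the unadjusted p stayed at 0.031, the smallest that 6 lists allow, but the adjusted p of 0.0547 did not pass (exact sign-flip permutation test). The CHG ratio gave no value at that setting, since a list had 0 such DMCs on the arms.

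CG DMCs had no common direction between interval and arms. They reached 8.47, 10.9 and 10.8 per 10000 CG sites in CVL39 and 9.14, 10.6 and 5.90 in CVL125, and on the arms 9.26, 10.9 and 11.1 in CVL39 and 8.70, 11.7 and 4.01 in CVL125. The ratio was above 1 in 3 of 6 lists and averaged 1.04-fold (exact permutation p = 0.84). Among cytosines whose 31-base word is unique it averaged 1.20-fold and passed the test (exact sign-flip permutation p = 0.031, adjusted p = 0.031), an alternative added after the data had been seen. With landscape 6 of CVL125 left out the mean ratio was 0.967, and among DMCs with a listed p of 0.005 or less it was 0.690.

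**Figure D1:**
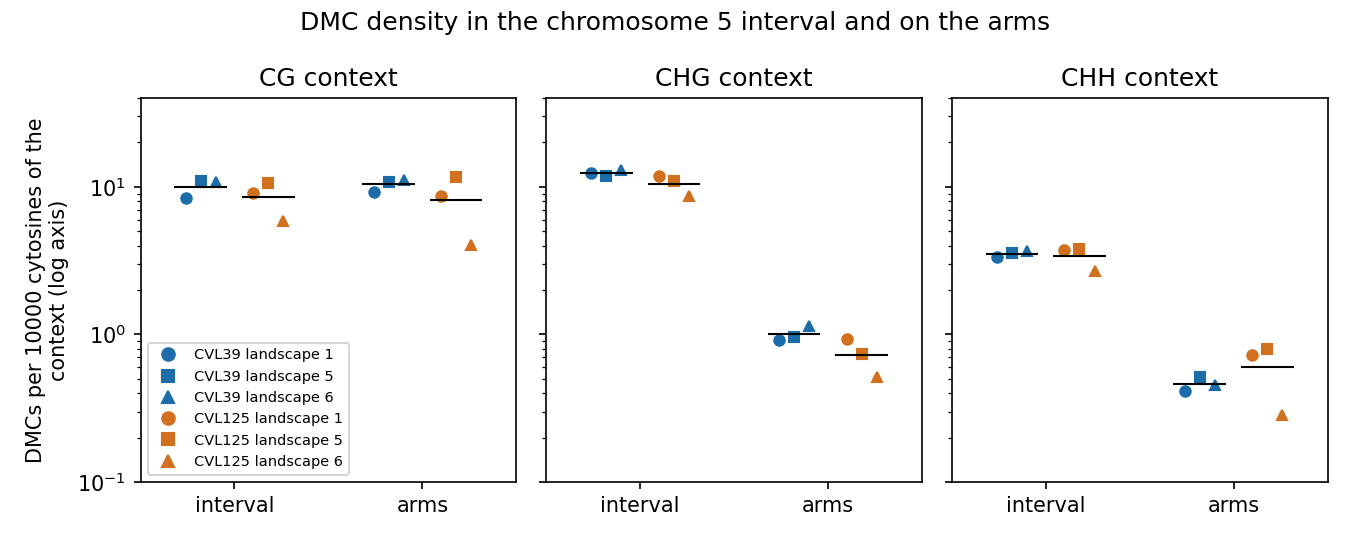
DMCs per 10000 reference cytosines of each context (log axis) in the chromosome 5 interval and on the arms, with 1 point per list and a bar at the mean of each line. CHG and CHH points of the interval lie above all points of the arms, whereas the CG points of interval and arms overlap.

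Other pericentromeres gave a scale for these densities. Against a window of the same length on chromosome 1, 11500001 to 18500001, the chromosome 5 interval held 1.31 to 1.63 times as many CHG DMCs per CHG site and 1.11 to 1.501 times as many CHH DMCs per CHH site, above 1 in 6 of 6 lists in both contexts (exact sign-flip permutation p = 0.031, adjusted p = 0.094 over 6 ratios, which did not pass). Against the window from 10000001 to 17000001 of chromosome 3 the CHG ratio ran from 0.712 to 1.17 and the CHH ratio from 0.818 to 1.14, with no common direction. CHG DMCs were at 12.4, 11.8 and 13.1 per 10000 CHG sites of the interval in CVL39, below the 15.7, 16.5 and 17.4 of the chromosome 3 window in each list. In CVL125 they were at 11.8, 11.0 and 8.67 in the interval, beside 10.1, 10.7 and 8.78 on chromosome 3, where landscapes 1 and 5 had the higher density in the interval. No test of that difference between lines was run.

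Within the CHH context the interval DMCs favoured particular trinucleotides. CAA and CTA together made up 55.3%, 57.0% and 52.8% of CHH DMCs in CVL39 and 51.5%, 49.7% and 53.9% in CVL125, against 28.6% of the CHH sites of the interval. On the arms the same 2 trinucleotides made up 27.2%, 27.4% and 29.96% of CHH DMCs in CVL39 and 15.4%, 17.3% and 32.9% in CVL125. CAA and CTA are the CHH sequences that CMT2 methylates most efficiently in Arabidopsis. Per 10000 sites of its own kind, CTA had 4.94 to 7.50 DMCs over the 6 lists and CAA 5.14 to 6.87, while CCC had 0.719 to 1.92, CCT 0.759 to 1.59 and CAT 1.18 to 2.02. CTC ran from 2.89 to 6.99, a wide range that includes the CT runs of CVL125.

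The CHG context showed little such preference. CAG and CTG together took 79.9% to 85.4% of CHG DMCs in the 6 lists, beside 79.3% of CHG sites in the reference. CCG took 14.6% to 20.1%, beside 20.7%.

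CG and CHG sites are palindromic, and the cytosine opposite a DMC was rarely listed too. In the interval 2, 8 and 4 CG DMCs of CVL39 and 6, 6 and 0 of CVL125 had it in the same list, at most 2.25%, and for CVL125 landscape 6 a count of 0 of 193 allows a share of up to 1.55%. Among CHG DMCs the counts were 0, 0 and 0 in CVL39 and 2, 2 and 4 in CVL125, at most 1.39%. Close neighbours mostly shared a strand: of consecutive DMCs at most 50 bp apart, 80.8% to 89.8% lay on the same strand. The share of consecutive DMCs under 100 bp apart was 22.1% ± 0.117 for CVL39 and 24.0% ± 1.87 for CVL125 (SD over 3 populations; exact permutation p = 0.4). Median spacing was 859 to 1255 bp in the interval and 5238 to 17818 bp on the arms.

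The share of DMCs with a low listed p-value differed between contexts. At CG sites, DMCs with a p-value of 0.005 or less made up 15.9%, 16.3% and 17.9% of the interval DMCs of CVL39 and 22.7%, 23.0% and 12.4% of those of CVL125. On the arms the CG shares were higher in each of the 6 lists, at 27.2%, 28.6% and 30.2% in CVL39 and 28.8%, 34.2% and 14.97% in CVL125. At CHG sites the interval shares, 8.25% to 9.95%, were above those of the arms, 0% to 9.90%, in 4 of 6 lists. At CHH sites they ran from 6.06% to 13.2% in the interval and from 7.83% to 26.4% on the arms, lower in the interval in 5 of 6 lists. No test was run on these shares, and the coverage behind the lists is not known.

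Annotation separated the contexts inside the interval. Protein-coding genes carried more CG DMCs and far fewer CHG and CHH DMCs than the rest of the interval. In them CG DMCs reached 11.6, 16.4 and 15.5 per 10000 CG sites in CVL39 and 15.2, 16.4 and 8.03 in CVL125, which was 1.56 to 2.17 times the density in other interval sequence (exact sign-flip permutation p = 0.031, adjusted p = 0.0352, higher in 6 of 6 lists). CHG DMCs in protein-coding genes were at 0.120 to 0.204 times the density elsewhere in the interval, and CHH DMCs at 0.113 to 0.142 times (exact permutation p = 0.031 and adjusted p = 0.0352 for each, lower in 6 of 6 lists). Among DMCs with a listed p of 0.005 or less the CG ratio was 3.94-fold and the CHG ratio 0.220-fold, and the CHH ratio gave no value. For CG and CHG the unadjusted p stayed at 0.031, the smallest that 6 lists allow. Their adjusted p of 0.0547 did not pass (exact sign-flip permutation test).

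Pseudogenes held 46.1% to 52.3% of all interval DMCs of a list, protein-coding genes 11.4% to 13.6%, and sequence outside genes 36.1% to 40.6%. In pseudogenes CHG DMCs reached 23.7, 22.8 and 25.3 per 10000 CHG sites in CVL39 and 19.98, 19.8 and 14.9 in CVL125. These values were 2.41, 2.43 and 2.57 times the density outside genes in CVL39 and 1.67, 1.91 and 1.83 times in CVL125 (exact sign-flip permutation p = 0.031 over 6 lists, adjusted p = 0.0352). The ratios of the lines did not overlap. Their difference had an exact permutation p of 0.1, the smallest that 3 against 3 populations can give, and an adjusted p of 0.562 over 9 ratios. No difference between lines could pass 0.05 in this design, so the test cannot decide it. Among DMCs with a listed p of 0.005 or less the mean CHG ratio of pseudogenes was 1.93-fold. Its unadjusted p stayed at 0.031, the smallest that 6 lists allow, but the adjusted p of 0.0547 did not pass (exact sign-flip permutation test).

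CHH DMCs in pseudogenes were 1.54 to 2.02 times as dense as outside genes, and CG DMCs 1.09 to 1.32 times, both in 6 of 6 lists (exact permutation p = 0.031, adjusted p = 0.0352 for each). The CG result depended on the settings: the mean ratio of 1.21-fold became 0.829-fold when genes were extended by 1 kb on both sides, a change of direction that also passed the test, and 1.02-fold within 10 to 15 Mb, where it did not pass. Among DMCs with a listed p of 0.005 or less neither ratio passed, with 1.19-fold for CG and 1.35-fold for CHH (exact sign-flip permutation test, adjusted p = 0.438 and 0.146).

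**Figure D2:**
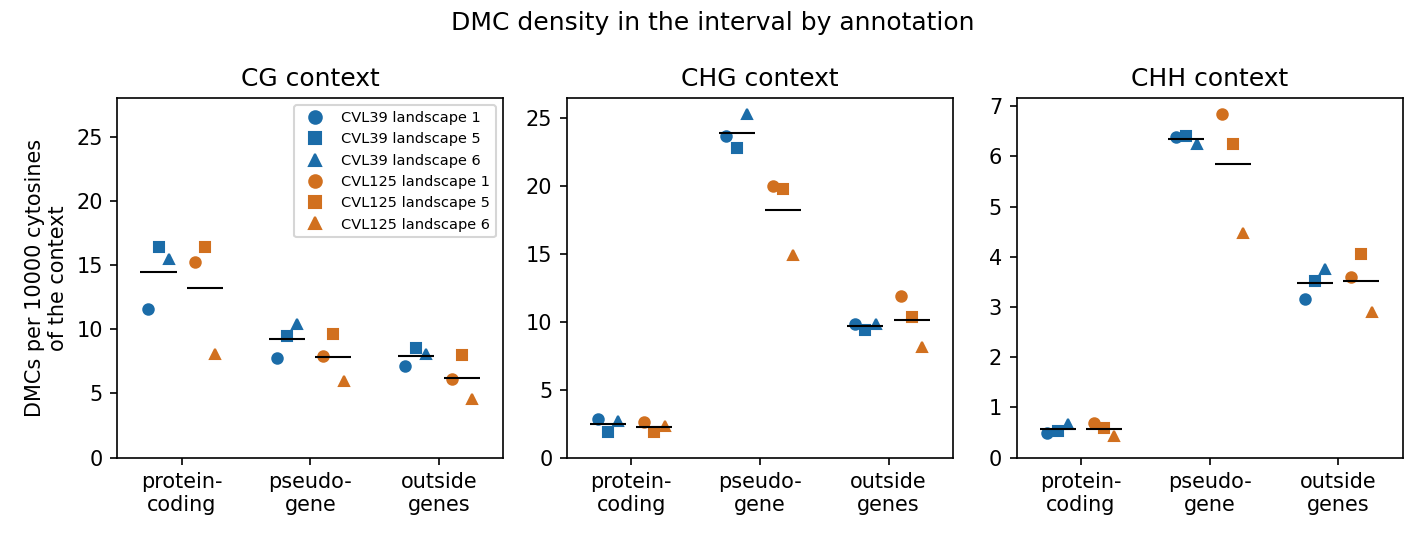
DMCs per 10000 reference cytosines of each context inside the interval, by annotation, with 1 point per list and a bar at the mean of each line. CG density is highest in protein-coding genes in every list, and CHG and CHH densities are highest in pseudogenes and lowest in protein-coding genes.

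Along protein-coding genes of the interval the CG DMCs lay toward the 3′ end. With each gene cut into 3 equal parts, in the 5′ part the CG density was 5.37, 6.32 and 6.001 per 10000 CG sites in CVL39 and 5.69, 5.37 and 2.53 in CVL125. In the 3′ part it reached 16.7, 31.8 and 25.4 in CVL39 and 23.1, 24.2 and 12.9 in CVL125, so that the 3′ part exceeded the 5′ part by 3.10- to 5.10-fold in the 6 lists. Coding exons held 87.8% to 92.6% of the CG DMCs in protein-coding genes, beside 69.9% of their CG sites, and introns held 4.41% to 10.2%, beside 15.8%. The CHG density showed no common order along the genes, with 1.61 to 3.53 per 10000 CHG sites in the 5′ part and 1.21 to 3.03 in the 3′ part. These positional values are descriptions without a test.

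**Figure D3:**
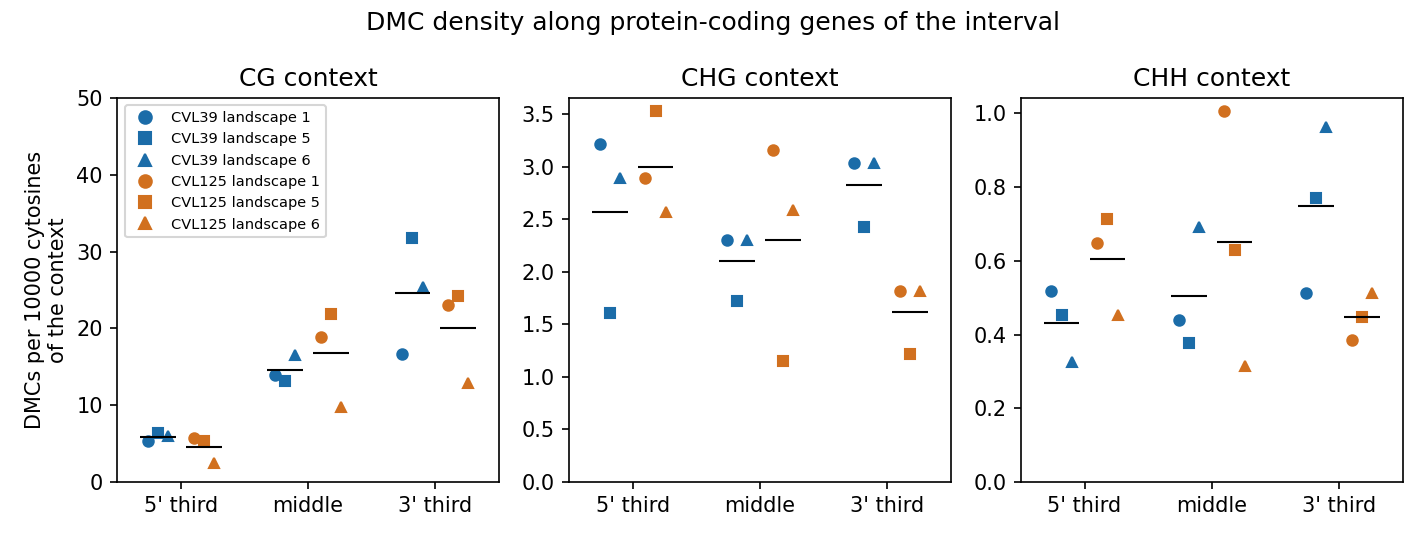
DMCs per 10000 reference cytosines in the 5′, middle and 3′ part, each of equal length, of protein-coding genes that lie inside the interval, with 1 point per list and a bar at the mean of each line. In the CG panel every list has its lowest density in the 5′ part, whereas CHG and CHH densities have no common order.

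Outside genes, DMCs were denser near pseudogenes than near protein-coding genes in all 3 contexts. Within 1 kb of a pseudogene and away from protein-coding genes, CHG DMCs stood at 14.3, 13.3 and 14.3 per 10000 CHG sites in CVL39 and 17.6, 14.8 and 12.6 in CVL125. Within 1 kb of a protein-coding gene and away from pseudogenes they stood at 5.26, 4.13 and 3.38 in CVL39 and 5.64, 4.88 and 2.25 in CVL125. The 2 zones did not overlap in CHG. They did not overlap in CHH either, with 3.59 to 5.92 DMCs per 10000 CHH sites near pseudogenes and 0.438 to 1.17 near protein-coding genes, nor in CG, with 5.31 to 9.46 near pseudogenes and 1.55 to 4.35 near protein-coding genes. No test was run on these zones. Over 1 kb from both, CG ran from 5.63 to 11.1, CHG from 8.19 to 10.7 and CHH from 3.53 to 4.85.

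The DMCs were unevenly spread over the 70 windows of 100 kb. The richest window, 11700001 to 11800000, held 100, 123 and 120 DMCs in CVL39 and 108, 98 and 85 in CVL125, and was first in both lines. It held no protein-coding gene and 28.9% of its bases lay in pseudogenes. CHH sites made up 237 of its DMCs in CVL39 and 204 in CVL125, more than CG and CHG together in each line. Only 33.4% of its bases were the centre of a unique 31-base word, and 53.9% of its DMC rows fell on such bases.

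The next ranks in both lines were taken by the windows starting at 12000001 and 11100001. The window from 12000001 to 12100000 had 72, 65 and 57 DMCs in CVL39 and 58, 55 and 50 in CVL125. The window from 11100001 to 11200000 had 55, 64 and 56 in CVL39 and 59, 66 and 47 in CVL125, with 68 CHG DMCs over the 3 lists of CVL39 and 54 over those of CVL125. Ranks 4 and 5 were 10900001 to 11000000 and 11000001 to 11100000 in CVL39 and 11200001 to 11300000 and 11900001 to 12000000 in CVL125. The megabase from 11000001 to 12000000 held 31.5% of all interval DMCs, with protein-coding genes on 2.21% of its bases and pseudogenes on 41.4%.

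At the other end, the window from 14400001 to 14500000 had no DMC in any of the 6 lists. Only 0.086% of its bases were the centre of a unique 31-base word, and the part of read placement in this count was not tested. The window from 12700001 to 12800000 had 3, 5 and 2 in CVL39 and 5, 4 and 0 in CVL125. The outer megabases were poorer and richer in CG: from 9000001 to 10000000 CG sites made up 38.4% of the DMCs, from 14000001 to 15000000 39.3% and from 15000001 to 16000000 53.1%, against 16.7% to 20.3% in the 4 megabases between 10000001 and 14000000. Over the 70 windows the mean count of CVL39 and that of CVL125 had Pearson r = 0.969 and Spearman rho = 0.937. The mean count fell with protein-coding cover (rho = -0.59 in CVL39 and -0.56 in CVL125) and rose with pseudogene cover (rho = 0.63 and 0.61). These correlations across windows are descriptions, since windows share their lists and the lines share the reference sequence.

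**Figure D4:**
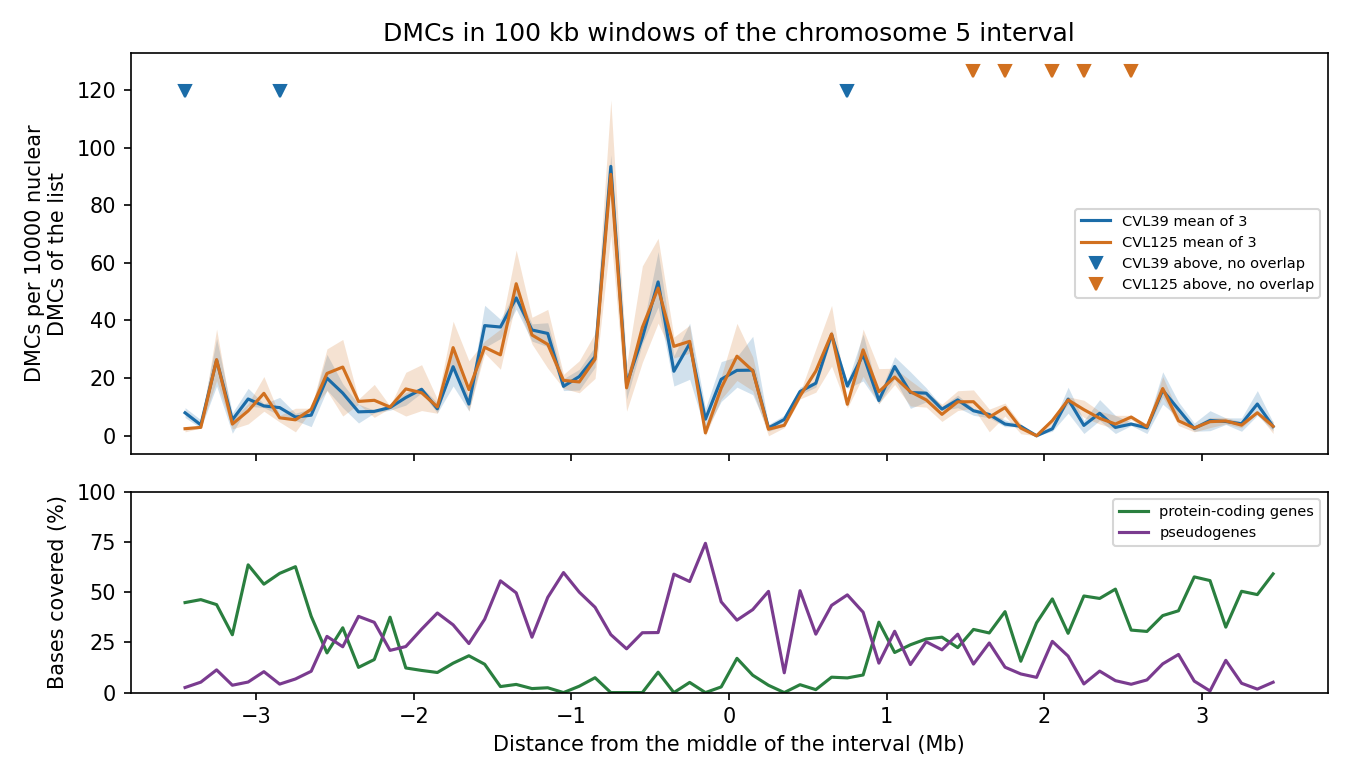
DMCs in 100 kb windows, as DMCs per 10000 nuclear DMCs of the list (upper panel, mean of 3 lists per line with the range shaded), and the share of bases in protein-coding genes and pseudogenes (lower panel), against the distance from the middle of the interval in Mb. Both lines peak in the same window, to the left of the middle, and triangles mark the 8 windows in which the lines do not overlap.

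A window was called when the scaled counts, DMCs per 10000 nuclear DMCs of the list, of all 3 populations of one line lay above all 3 of the other, among windows with at least 20 DMCs over the 6 lists. Of the 67 such windows of the interval, CVL39 was above in 3 (4.48%, beside 13.5% of windows over the nuclear genome) and CVL125 was above in 5 (7.46%, beside 11.1%). Together 8 windows, or 11.9%, were called, beside 24.6% over the nuclear genome, so the share in the interval was below that of the genome. Without landscape 6 of CVL125, where 3 lists stand against 2, 23 of 65 windows were called (35.4%, beside 43.2%), 13 with CVL39 above and 10 with CVL125 above. Without CT runs 12 windows were called (17.9%, beside 24.9% over the nuclear genome), 9 of them with CVL125 above. On unscaled counts 7 were called (10.4%, beside 17.2%), 1 of them with CVL125 above.

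The called windows with CVL39 above were 13200001 to 13300000, 9000001 to 9100000 and 9600001 to 9700000. The first had 18.6, 16.6 and 16.5 scaled DMCs in CVL39 and 11.1, 12.1 and 9.59 in CVL125, and it held 28 CHG DMCs over the 3 lists of CVL39 and 13 over those of CVL125. The second had 9.76, 6.34 and 7.84 in CVL39 and 3.18, 2.84 and 1.37 in CVL125. Most DMCs of the last were at CG sites, with 33 of 36 in CVL39 and 16 of 21 in CVL125.

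All 5 windows with CVL125 above lay between 14000001 and 15100000. The window from 14200001 to 14300000 had 3.55, 5.55 and 3.14 scaled DMCs in CVL39 and 11.1, 11.4 and 6.85 in CVL125. The window from 14700001 to 14800000 had 5.33, 0.793 and 4.71 in CVL39 and 6.37, 8.53 and 12.3 in CVL125, and it held 2 CG DMCs over the 3 lists of CVL39 and 21 over those of CVL125. The others were 14000001 to 14100000, 14500001 to 14600000 and 15000001 to 15100000. That stretch was chosen by its values, so its position carries no test.

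Genes and pseudogenes were ranked by the number of distinct cytosines listed in at least 2 populations of a line. Of 838 protein-coding genes overlapping the interval, 27.4% held a DMC of CVL39 and 26.6% one of CVL125, beside 26.2% and 25.0% of the protein-coding genes of the nuclear genome. Of 779 pseudogenes, 51.0% held a DMC of CVL39 and 49.4% one of CVL125, beside 44.4% and 40.7% of those of the nuclear genome. Of all 1814 annotated genes and pseudogenes of the interval, 176 held a cytosine listed in at least 2 CVL39 populations (9.70%, beside 7.75% over the nuclear genome) and 166 one listed in at least 2 CVL125 populations (9.15%, beside 7.18%). A cytosine in all 3 populations was found in 28 for CVL39 (1.54%, beside 1.63%) and in 29 for CVL125 (1.60%, beside 1.19%).

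By class, a cytosine in all 3 CVL39 lists was held by 20 protein-coding genes and 7 pseudogenes of the interval (2.39% and 0.899%, beside 1.83% and 1.80% over the nuclear genome). One in all 3 CVL125 lists was held by 7 protein-coding genes and 22 pseudogenes (0.835% and 2.82%, beside 1.24% and 2.00%). No test of a difference between lines was run on these counts.

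Pseudogene AT5G26345 (chromosome 5, 9249457 to 9252813, plus strand) headed the ranking in both lines. It held 25, 25 and 17 DMCs in CVL39 and 25, 15 and 22 in CVL125, the highest density of the named genes in all 6 lists, at 4.47 to 7.45 per kb. Its 106 distinct cytosines comprised 9 CG, 36 CHG and 61 CHH sites, 59 on the plus and 47 on the minus strand, and 99.3% of its bases were unique at 31 bases. Of 60 cytosines in CVL39 and 51 in CVL125 only 5 were common to both lines, and 7 in CVL39 and 9 in CVL125 were listed in at least 2 populations.

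Pseudogene AT5G34851 (13086817 to 13091997, plus strand) came next in both lines, by the rule for ties, which were ordered by distinct cytosines in any list of the line and then by locus identifier. It had as many cytosines listed in at least 2 populations as AT5G30406 in both lines (6 each in CVL39 and 5 each in CVL125), and as AT5G29022 and AT5G35932 in CVL125. It held 15, 20 and 18 DMCs in CVL39 and 15, 19 and 14 in CVL125, with 38 CHG and 38 CHH sites among 84 distinct cytosines. AT5G30406 (11368303 to 11372538, minus strand) held 8, 8 and 17 in CVL39 and 12, 8 and 11 in CVL125. None of its 52 cytosines was listed in both lines. These 3 pseudogenes were alike in context, with CG at 2 to 9 of their distinct cytosines.

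Other pseudogenes of the CVL39 ranking were picked for their recurrence in CVL39, so higher counts in that line are a description only. AT5G29562 (11197050 to 11201681) held 10, 16 and 18 in CVL39 and 11, 10 and 6 in CVL125, and its ranges overlapped. AT5G27947 (9979367 to 9982856) held 6, 6 and 12 in CVL39 and 3, 3 and 5 in CVL125. AT5G29646 (11622149 to 11630296) held 13, 10 and 7 in CVL39 and 5, 7 and 3 in CVL125. AT5G35555, AT5G29032 and AT5G38192 completed the CVL39 ranking, each with 4 cytosines listed in at least 2 populations.

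Pseudogene AT5G29022 (11047199 to 11050909, minus strand) carried the CG cluster printed above. It held 6, 7 and 5 DMCs in CVL39 and 9, 7 and 8 in CVL125, and 11 of its 27 distinct cytosines were CG sites. The 4 CG sites of the cluster were listed in all 3 CVL125 populations and in no CVL39 population, although the pseudogene as a whole was listed in both lines. The cluster was picked for its recurrence in CVL125, so this contrast is a description.

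AT5G28780 (10812907 to 10814173, minus strand), annotated as a PIF1 helicase, a family of DNA helicases that act in genome maintenance, was the single protein-coding gene among the named genes. It held 0, 0 and 0 DMCs in CVL39 and 4, 4 and 6 in CVL125. Its 7 distinct cytosines were 1 CHG and 6 CHH sites, all on the plus strand, opposite to the gene, with 4 in coding exons and 3 in introns. The 4 sites of the printed cluster were at positions where each 31-base word is unique. The gene was picked for its recurrence in CVL125, so the contrast with CVL39 is a description.

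Transcribed pseudogene AT5G35932 (14076894 to 14078367) held 0, 1 and 1 DMCs in CVL39 and 6, 4 and 2 in CVL125. AT5G28935 (10974472 to 10979625) held 5, 9 and 7 in CVL39 and 8, 13 and 5 in CVL125, and 25 of its 38 distinct cytosines were CHH sites. AT5G27160 (9562596 to 9565841) held 5, 5 and 4 in CVL39 and 11, 6 and 5 in CVL125, and 33.5% of its bases were unique. AT5G28673 (10706347 to 10708619) held 5, 0 and 0 in CVL39 and 9, 6 and 3 in CVL125, and it overlaps a CT run, described below, in which most of these lay.

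**Figure D5:**
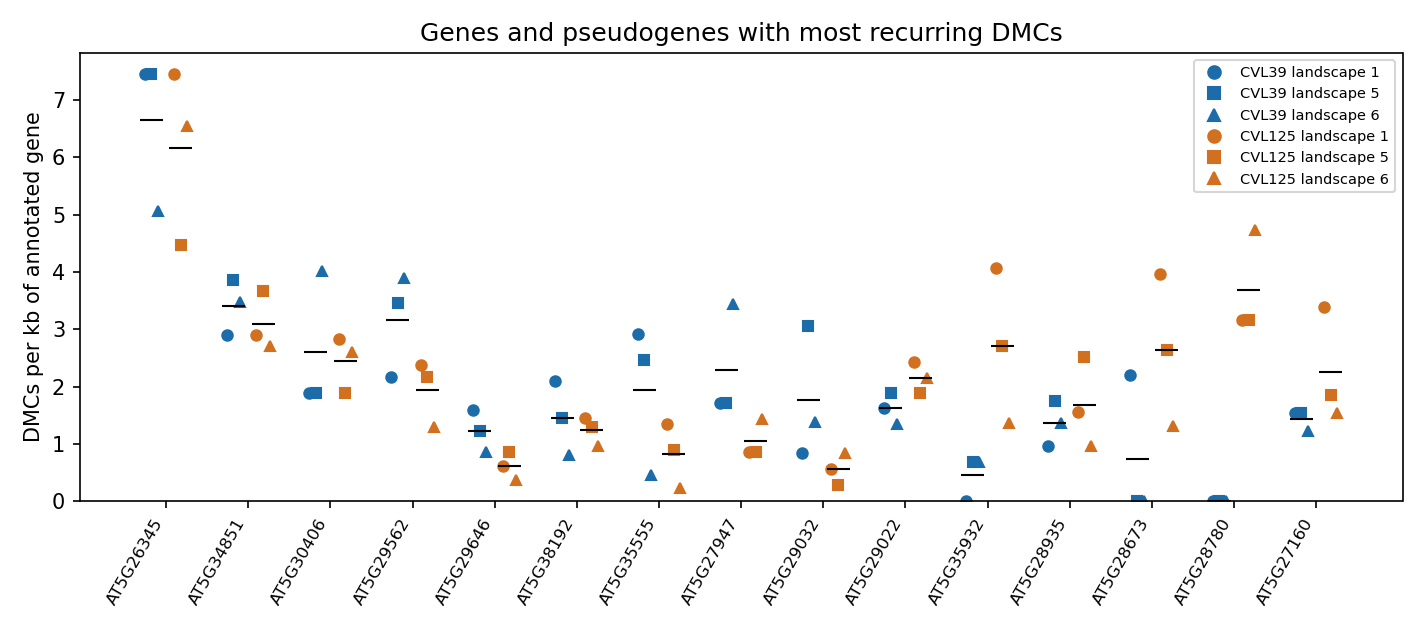
DMCs per kb in the 15 genes and pseudogenes with the most recurring DMCs in CVL39 or CVL125, with 1 point per list and a bar at the mean of each line. AT5G26345 has the highest density in each of the 6 lists, and AT5G28780 has DMCs in CVL125 and none in CVL39.

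Protein-coding genes with recurring DMCs, picked after their values were seen, carried CG sites for the most part. An exception was AT5G28780, described above, which headed those of CVL125 with 0 CG, 1 CHG and 6 CHH sites. Another was PRK1 (AT5G35390), which encodes a pollen receptor kinase. PRK1 held 4, 3 and 3 DMCs in CVL39 and 1, 3 and 0 in CVL125, with 2 CG, 3 CHG and 2 CHH sites in CVL39. CYP735A1 (AT5G38450), which encodes a cytokinin hydroxylase, held 1, 3 and 4 in CVL39 and 2, 0 and 0 in CVL125. Among those recurring in CVL125, TRM8 (AT5G26910) held 2, 2 and 3 DMCs in CVL39 and 2, 3 and 1 in CVL125. AT5G33280 held 0, 1 and 2 in CVL39 and 3, 1 and 3 in CVL125. CAT3 (AT5G36940), which encodes a cationic amino acid transporter, held 0, 1 and 0 DMCs in CVL39 and 2, 4 and 2 in CVL125, all 4 distinct cytosines of CVL125 being CG sites. AT5G37310 held 0, 0 and 0 in CVL39 and 3, 3 and 2 in CVL125, again at 4 CG sites.

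A list of 20 genes of the interval with known roles was looked up as well. None held more than 3 distinct DMC cytosines in a line. TGG1 and TGG2 (myrosinases), GID1C (a gibberellin receptor), AN3 (GIF1, a growth coactivator), BZO2H3 (BZIP63, an energy-signalling factor), SAP (a floral regulator), SEF (a chromatin-remodelling subunit) and RVE2 (a clock-related factor) held 0 in both lines. All others of the 20, given below, held a DMC in one line or both. Of all protein-coding genes overlapping the interval, 27.4% held a DMC of CVL39 and 26.6% one of CVL125. No test of the list against these shares was run. Among transport genes, MSS1 (STP13), which encodes a hexose transporter, held 3, 0 and 0 DMCs in CVL39 and 0 in every CVL125 list. NHX1, which encodes a vacuolar sodium/proton antiporter, held 1, 2 and 0 DMCs in CVL39 and 2, 2 and 0 in CVL125. GORK, the guard-cell outward potassium channel, held 1, 1 and 1 in CVL39 and 2, 2 and 0 in CVL125. These counts overlapped between lines. SOS2, a salt-tolerance kinase, held 1, 2 and 0 in CVL39 and 1, 1 and 0 in CVL125.

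Among light, clock and hormone genes, CDF2, which encodes a Dof factor that represses flowering, held 0, 2 and 2 DMCs in CVL39 and 1, 1 and 0 in CVL125. PHYC, a phytochrome, held 0 in CVL39 and 1, 0 and 0 in CVL125. HK2 (AHK2), a cytokinin receptor, held 0 in CVL39 and 1, 2 and 0 in CVL125, and ARF8, an auxin response factor, held 0, 1 and 0 in CVL39 and 1, 2 and 0 in CVL125. GA3, which encodes ent-kaurene oxidase of gibberellin synthesis, held 0 in CVL39 and 0, 0 and 1 in CVL125.

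All sites named in the transport, light, clock and hormone genes were CG, whereas those of VIM3 and NAC6 were CHH. VIM3, whose protein family binds methylated DNA, held 0, 0 and 1 DMCs in CVL39 and 0 in CVL125. NAC6 (NAC092), a senescence regulator, held 0, 1 and 0 in CVL39 and 0, 2 and 0 in CVL125. BIP1, an endoplasmic reticulum chaperone, held 0, 1 and 0 in CVL39 and 0, 1 and 0 in CVL125. With 0 to 3 DMCs per list, a difference between lines in the genes looked up by name was not detectable.

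Recurrence of the exact cytosine between populations was low. Of the 6859 distinct cytosines, 5929 (86.4%) were in 1 list, 799 in 2, 125 in 3, 5 in 4, 1 in 5 and 0 in all 6. In CVL39, 38 of 3746 cytosines (1.01%) were in all 3 lists, and in CVL125 62 of 3271 (1.90%). The same shares were 3.91% and 2.60% on the chromosome 5 arms and 2.39% and 2.27% over the nuclear genome. These shares pool contexts, whose mix differs between regions. By context, CVL39 had 2.34% (CG), 0.724% (CHG) and 0.559% (CHH) in the interval, beside 4.02%, 0.890% and 1.33% over the nuclear genome. CVL125 had 2.82%, 1.28% and 1.85%, beside 2.70%, 1.24% and 2.28%, so only its CHH share was below that of the genome. In the interval the recurring cytosines of CVL39 were 20 CG, 8 CHG and 10 CHH sites, and those of CVL125 were 20 CG, 12 CHG and 30 CHH sites.

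Pairs of populations of the same line shared more cytosines than pairs across lines. Within CVL39, pairs shared 141 to 168 cytosines, which was 9.67% to 12.9% of either list. Within CVL125, landscapes 1 and 5 shared 268, or 19.4% and 19.0% of their lists, and the pairs with landscape 6 shared 142 and 147. Pairs across lines shared 13 to 35 cytosines, at most 2.54% of a list. Populations of a line share their ancestral pool and their genotype, so neither can be told apart from selection here. In all, 158 cytosines (2.30%) were listed in both lines, 35 CG, 42 CHG and 81 CHH sites, beside 2.37% over the nuclear genome.

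Runs of at least 4 CT dinucleotides held DMCs in numbers that differed between lists. Interval DMCs in such runs numbered 9, 12 and 10 in CVL39 and 57, 65 and 16 in CVL125, with every CVL125 list above every CVL39 list. Those at CHH sites numbered 57, 63 and 16 in CVL125, which was 8.27%, 9.03% and 3.23% of its CHH DMCs. Of the 1158 CT runs of the interval, 16 held any DMC and 3 of these held 125 of 169 rows. The run printed above, 10058492 to 10058564, held 1, 1 and 3 DMCs in CVL39 and 28, 26 and 3 in CVL125. The run from 10418748 to 10418792 held 0, 4 and 0 in CVL39 and 18, 20 and 0 in CVL125.

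Both of these runs were high in landscapes 1 and 5 of CVL125 and low in its landscape 6, so they did not mark the line as a whole. The next run, 10708333 to 10708451, which lies in AT5G28673, held 5, 0 and 0 in CVL39 and 8, 5 and 3 in CVL125. Words of 31 bases in the first run occur up to 3208 times in the nuclear genome, and the part of read placement in these counts was not tested. The repeated sequence at 11887186 to 11887215 printed above had words that occur 77 to 318 times, and it held 1, 0 and 1 DMCs in CVL39 and 4, 4 and 3 in CVL125. Of all interval DMCs of a list, 80.4% to 83.9% lay at unique words, beside 75.4% of all interval cytosines.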

How the data were processed

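Bisulfite reads of 8 pools (2 ancestral, 6 selected) had been sequenced by the authors on the SOLiD platform and aligned with SOCS to Ler and Cvi sequences built from TAIR10. Each deposited list gives a chromosome, strand, position and p-value, per the file headers, for cytosines that differed from the ancestral pool; the test, its coverage minimum and the tested cytosines are not given in the sources used here. The deposited p-values were used only as given, all at most 0.05. The members and gene lists were chosen with earlier results of these data known.

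Positions, counted from 0 in the lists, were matched to the TAIR10.1 sequence, and context, annotation (RefSeq) and the copy number of the 31-base word around each base were read from it; 24 interval positions off a cytosine were left out, and base differences between Ler, Cvi and TAIR10 were not used. Pseudogene annotations include transposon genes. Lines were compared over 3 lists each with two-sided exact permutation tests (smallest p 0.1), adjusted over 7 results. Densities inside and outside a class were compared as log2 ratios over the 6 lists with two-sided exact sign-flip tests (smallest p 0.031), adjusted over 9; the threshold was 0.05. Named genes were the 10 per line with the most distinct cytosines listed in at least 2 populations, ties going to more cytosines in any list of the line, then to locus identifier. The 20 genes of known role were fixed by name. Alternatives were p at most 0.005, 10 to 15 Mb, no CT runs, 1 kb gene flanks, 50 bp matching, 50 kb windows, unscaled counts, unique words and each list left out. Python 3.11.15, numpy 2.4.6, pandas 2.3.3 and SciPy 1.17.1 were used, and the ratio test was tested on simulated data. Read depth is unknown. The ratio tests count the 6 lists as independent and do not account for the ancestral pool that the 3 lists of a line share. Their p-values therefore do not measure a spread between independent pools. The simulated lists were drawn independently, so that check does not cover the sharing.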

Additional observations from a re-analysis of the deposited data

Results flagged for a closer look

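Listed positions at which the reference has no cytosine on the strand given stood outside all comparisons. In the interval there were 3, 6 and 6 of them in CVL39 and 4, 1 and 4 in CVL125. The counts of 6 (landscape 5 of CVL39), 6 (landscape 6 of CVL39), 4 (landscape 1 of CVL125) and 4 (landscape 6 of CVL125) were flagged because they exceed a cut-off of 3, which is not a test. All 24 lay after the middle of the interval, between 12515791 and 15859766, and 0 before it. Of the DMCs, 5303 lay before the middle and 2624 after it. Of their 20 distinct positions, 4 were in 2 lists, each time of the same line.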

How the results depend on the processing

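Read depth per cytosine is unknown, so no interval could be put on single DMCs, and every result rests on 3 lists per line. With DMCs of p at most 0.005 the difference in interval DMCs turned to -11 and the CG ratio to the arms to -0.54 on the log2 scale (0.690-fold). The following log2 ratios no longer passed after adjustment: CHH to arms 2.18, CG in protein-coding genes 1.98, CHG there -2.19, and in pseudogenes against sequence outside genes CG 0.25, CHG 0.95 and CHH 0.43. Of these, the CG and CHH pseudogene ratios had unadjusted p of 0.44 and 0.125 (exact sign-flip permutation test). The others stayed at 0.031, the smallest that 6 lists allow. The CHG ratio to the arms and the CHH ratio in protein-coding genes gave no value there, since a list had 0 DMCs. Cytosines in all 3 lists then numbered 4 in CVL39 and 7 in CVL125, and 2 were in both lines. Between 10 and 15 Mb the CG pseudogene ratio was 0.0346 (log2), not passing, and 25 cytosines were in all 3 CVL39 lists. With 1 kb flanks the same ratio was -0.27 (0.829-fold), and with unique words the CG ratio to the arms was 0.26. Matching within 50 bp gave 360 in CVL39, 358 in CVL125 and 1190 in both lines. Non-overlapping windows numbered 6 with CVL39 above and 1 with CVL125 above on unscaled counts (together 10.4%, beside 17.2% over the nuclear genome). With 50 kb windows 19 were called, 10 and 9 (18.4%, beside 26.4%). Without CT runs 9 had CVL125 above, and the calls of both lines made up 17.9%, beside 24.9%. The causes were not tested.

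Leaving out each list in turn, no ratio could pass, since 5 lists allow p = 0.0625 at the smallest (exact sign-flip permutation test). The log2 ratios to the arms ran from -0.0488 to 0.0906 (CG), 3.69 to 3.80 (CHG) and 2.68 to 2.88 (CHH). In protein-coding genes they ran from 0.77 to 0.87 (CG), -2.77 to -2.61 (CHG) and -3.03 to -2.96 (CHH). In pseudogenes they ran from 0.25 to 0.31 (CG), 1.02 to 1.14 (CHG) and 0.75 to 0.83 (CHH). The difference in interval DMCs ran from -8.50 to 209.5 and that in the nuclear share from -0.81 to 0.86 percentage points. Positions in both lines ran from 98 to 126, and windows from 11 to 23, with 3 to 13 (CVL39 above) and 5 to 10 (CVL125 above). These windows were 16.9% to 35.4% of those of the interval, beside 30.5% to 43.2% over the nuclear genome. With a list left out fewer lists must agree, so a call is easier to reach. With the landscapes as replicate block no line result passed, since an exact sign-flip test over 3 pairs allows p = 0.25 at the smallest. The values were unchanged, such as 131.7 for interval DMCs. In a check of this pairing over 1081 windows, same-numbered landscapes had r = -0.085, 0.130 and -0.062 between lines. These lay within the range of differently numbered landscapes, -0.154 to 0.160. They cannot be set beside the r of 0.969 between the mean window counts of the lines in the interval.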
